A study of Drosophila melanogaster with 8 samples.

Results

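The 3 *Drosophila melanogaster* loci described here are those of *ds*, *ex* and *fj*, genes of the Fat and Hippo pathway. Their members are the peaks of Distal-less (Dll) and of the zinc finger protein Sp1 that were called from leg imaginal disc chromatin and that fall within 3 windows of the dm3 genome. The *ds* window runs from 640000 to 745000 and the *ex* window from 420000 to 455000, both on chromosome arm 2L. The *fj* window takes in every peak within 20 kb of the reporter fragments *fj_LE1* and *fj_LE2*, which comes to 14085743 to 14150003 on 2R. Together the 3 windows hold 46 of the 12319 Dll peaks and 60 of the 9850 Sp1 peaks in all, or 106 of 22169. The members were selected on their measured position, in windows that were chosen by looking at the peaks. The number of peaks in them, their strength and their overlap are thus given as a description and without a test.

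In ChIP-seq, an antibody pulls down a protein with the DNA it binds, and enrichment is read against input chromatin that was not immunoprecipitated. Pools of 100 wandering L3 larvae, the last larval stage, were used, with all 6 leg discs of each larva. Dll was precipitated with an anti-Dll antibody from *yw* larvae (3 ChIP libraries, 1 input library), and Sp1 with an anti-GFP antibody from larvae that carry Sp1-GFP (BAC), a tagged *Sp1* on an inserted genomic clone (3 ChIP libraries, 1 input library). Peak calling by the authors used merged libraries, so there is 1 value for each peak, without a spread between replicates, and the read depth behind a peak is unknown. Whole discs were used, and weak binding in many cells cannot be told apart from strong binding in few. Each peak carries the −log10 of its q value over input, called its value here, which is 4 or more in both lists. Antibody, larvae and libraries all differ between the factors, so peaks were ranked only within their own list, as a percentile from 0 (weakest) to 100 (strongest).

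Fat and Ds are large atypical cadherins that bind each other across cell boundaries. Fj is a kinase of the Golgi that phosphorylates the cadherin domains of both and so tunes their binding. Graded expression of *ds* and *fj* orients cells within the epithelium and acts on tissue growth, and loss of either gene shortens the leg and disturbs its joints. Ex is a FERM domain protein at the apical membrane that acts upstream of the Hippo kinase cascade, which restrains the growth-promoting co-activator Yorkie, and *ex* is in turn a target of Yorkie. Dll is the homeodomain protein of the distal leg, and Sp1 acts beside it in the specification and growth of the leg.

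Both factors had peaks in all 3 windows, with the most called peaks per 10 kb at *ex*. The 35.0 kb *ex* window held 14 Dll and 23 Sp1 peaks, or 4.00 and 6.57 per 10 kb. The 64.3 kb *fj* window held 17 and 22, or 2.65 and 3.42 per 10 kb. The 105.0 kb *ds* window held 15 of each, or 1.43 per 10 kb. Over the 5 large chromosome arms the density was 0.988 per 10 kb for Dll and 0.815 for Sp1. Relative to the arms, *ex* stood at 4.05 times for Dll and 8.07 times for Sp1. For *fj* these ratios were 2.68 and 4.2, and for *ds* 1.45 and 1.75. Dll peaks covered 29.2% of the *ex* window, 13.6% of the *fj* window and 10.0% of the *ds* window, against 4.02% of the arms. Sp1 peaks covered 15.0%, 7.81% and 5.56%, against 1.50%. Many peaks lay side by side, and the order of the loci by density depends on this. With peaks of each list joined within 500 bp, *ex* held 6 Dll and 6 Sp1 peaks, *fj* 12 and 14, and *ds* 10 and 7. Counted so, *fj* and not *ex* had the most peaks per 10 kb for both factors. Over the 5 arms, joining took 11744 Dll peaks to 6121 and 9679 Sp1 peaks to 5493. The number thus fell more steeply at *ex* than over the arms, so its ratios to the arms are lower for joined peaks. Those ratios were not computed. With peaks of both lists joined across gaps of up to 500 bp, the 106 peaks formed 32 stretches, of which 21 held both factors (65.6%), 7 held Dll alone (21.9%) and 4 held Sp1 alone (12.5%). Over the whole lists, joined the same way, these shares were 48.8%, 34.3% and 16.9% of 7487 stretches.

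**Figure D1:**
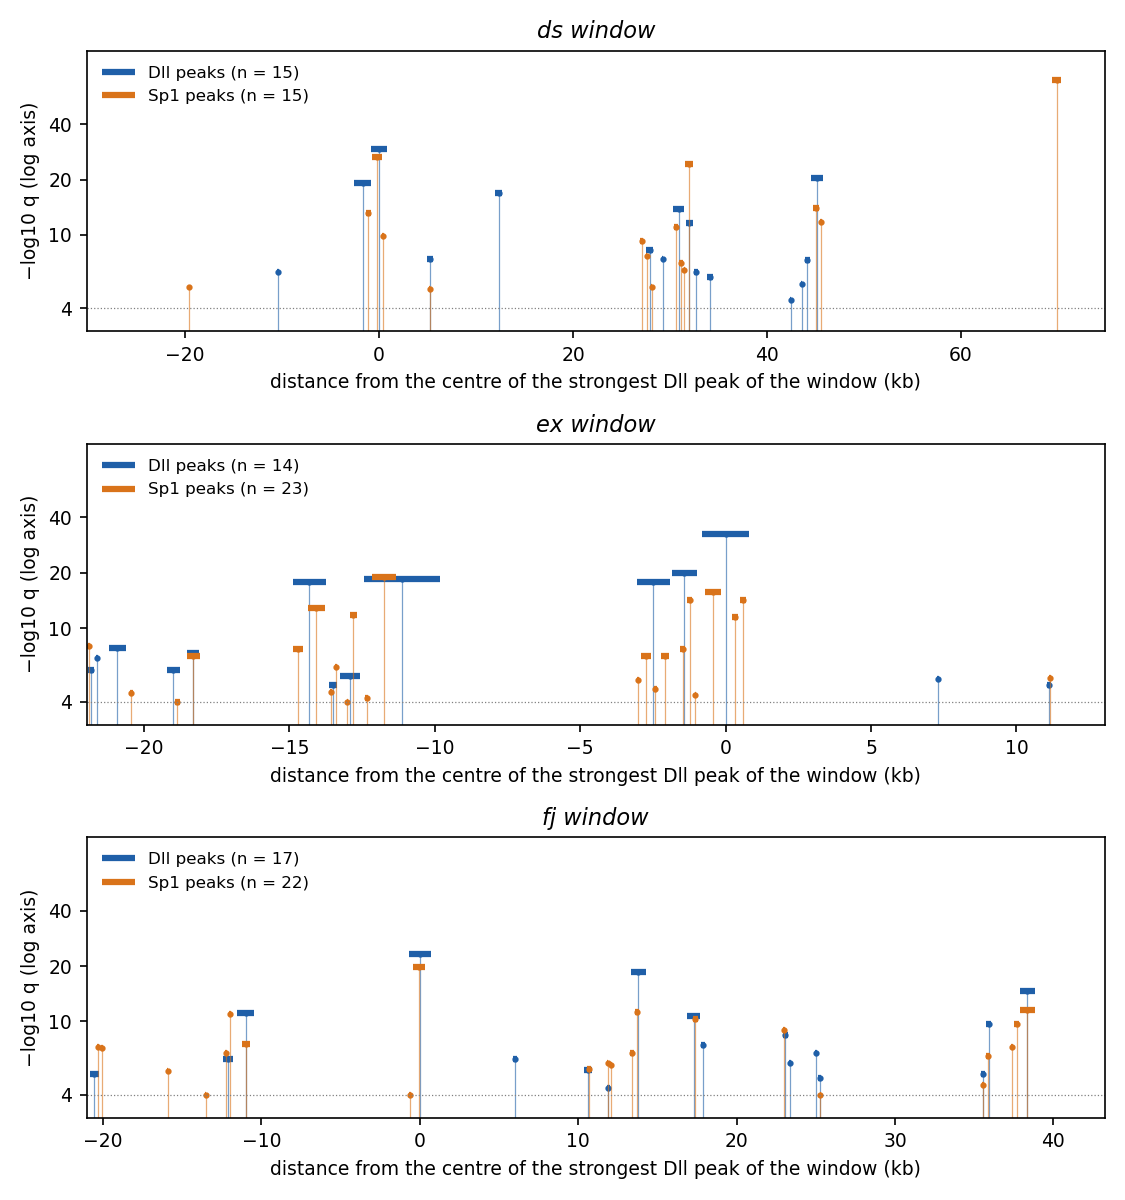
Position and strength of every Dll (blue) and Sp1 (orange) peak in the *ds*, *ex* and *fj* windows. The x axis is the distance in kb from the centre of the strongest Dll peak of the window, the y axis is −log10 q on a log axis with a dotted line at the lowest value of the lists, 4, horizontal bars span the peaks and dots with thin drop lines mark their centres. The 15 peaks of each factor at *ds* lie in separate groups with 1 isolated Sp1 peak at 69.80 on the right, while 18 of the 23 Sp1 peaks at *ex* lie in 2 long stretches.

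At *ds*, which codes for the cadherin that serves Fat as its ligand, the stretch with the highest Dll value ran from 667606 to 670960. It held 2 Dll and 3 Sp1 peaks. The Dll peak from 669359 to 670960 had a value of 29.15 (percentile 98.8 of the Dll list) and was the strongest of the window. The Sp1 peak from 669475 to 670411, with 26.38 (percentile 98.3), lay wholly inside it, and a smaller one from 670474 to 670668 had 9.93. The longest Dll peak of the window, from 667606 to 669304 (1698 bp), had 19.17 and held an Sp1 peak from 668816 to 669280 with 13.20. The strongest peak of each factor in this stretch was thus near the top of its list, while the Sp1 peaks with 13.20 and 9.93 stood at percentiles 87.48 and 77.55.

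A second group at *ds* ran from 700492 to 703031, with 3 Dll and 4 Sp1 peaks, and here the order of strength differed. The Sp1 peak from 701756 to 702486 had a value of 24.19 (percentile 97.6), while the Dll peak that shared 692 bp with it, from 701794 to 702501, had 11.55 (percentile 77.0). Beside them a Dll peak from 700492 to 701629 with 13.92 overlapped 3 Sp1 peaks with 11.00, 7.05 and 6.45. In another group, from 713711 to 715891, the Dll peak from 714656 to 715891 was the second strongest of the window with 20.30 (percentile 94.2) and held Sp1 peaks with 14.07 and 11.83. The Dll peak from 675124 to 675765 (7.44) and that from 697685 to 698449 (8.26) also held Sp1 peaks, 1 with 5.10 in the former and 2 with 7.68 and 5.25 in the latter.

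The Sp1 peak with the highest value at the 3 loci had no Dll peak. It lay from 739591 to 740531 in the *ds* window, was 940 bp long, had a value of 69.80 and came at place 3 of the Sp1 list. A lack of Dll at such a value was not particular to *ds*. The highest value of the whole Sp1 list, 84.94, and that of arm 2R, 63.05, also belonged to Sp1 peaks without Dll. The next highest Sp1 peak of the 3 loci had 26.38. The peak at 739591 also stood apart from the others in position. The nearest Dll peak ended 23700 bp before it and the next Dll peak began 75401 bp after it, while the nearest Sp1 peaks were 23793 and 85123 bp away. The other Sp1 peaks without Dll at *ds* were one from 697066 to 697392 (9.26), which ended 293 bp short of a Dll peak, and one from 650534 to 650591 (5.22), with the nearest Dll peak 9047 bp away. In all, 3 of the 15 Sp1 peaks at *ds* had no Dll peak (20.0%, against 27.9% of the Sp1 list).

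At *ds*, 8 of the 15 Dll peaks had no Sp1 peak (53.3%), near the 56.9% of the Dll list. The strongest of these, from 682163 to 682849, had a value of 16.92 (percentile 89.7), and the nearest Sp1 peak was 6712 bp away. The other 7 had values from 4.43 to 7.44 and were 88 to 638 bp long. Of the 12 stretches at *ds*, 5 held both factors, 5 Dll alone and 2 Sp1 alone. Stretches with no peak were also longest here, with 23700 bp before the isolated Sp1 peak, 14217 bp after the Dll peak at 682163, and 10535 bp at the left edge of the window.

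At *fj*, the gene of the Golgi kinase, the peaks lay in 14 shorter stretches, and 11 of these held both factors. The reporter fragments that define the window are described first. The paper chose them from regions where these Dll and Sp1 peaks met open chromatin and motif matches. That both factors have a peak on them thus follows from that choice and is not a result. *fj_LE2*, at 14105743 to 14107647, held the strongest peaks of both factors at this locus. A Dll peak from 14106057 to 14107471 with a value of 23.15 (percentile 96.4) covered 74.2% of the fragment. An Sp1 peak from 14106365 to 14107124 with 19.78 (percentile 95.9) lay wholly inside the Dll peak and covered 39.8% of the fragment. A second Sp1 peak there, from 14106098 to 14106185, had 4.00, the lowest value of the list. *fj_LE1*, at 14129561 to 14130003, held weaker peaks. Its Dll peak, from 14129665 to 14130005, had 8.47 (percentile 61.4) and covered 76.3% of the fragment, and its Sp1 peak, from 14129690 to 14129793, had 8.98 (percentile 71.5) and covered 23.3%. Both factors thus ranked lower on *fj_LE1* than the strongest peak of each on *fj_LE2*.

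Outside the fragments, the *fj* window held the Dll peak from 14120097 to 14121031 with a value of 18.52 (percentile 92.3), which overlapped Sp1 peaks with 11.22 and 6.75. A Dll peak from 14144665 to 14145570 with 14.60 (percentile 85.4) lay entirely within the longest Sp1 peak of the locus, from 14144633 to 14145570 with 11.61 (percentile 83.7). A Dll peak from 14095262 to 14096322 with 11.18 held an Sp1 peak with 7.54, and the neighbouring one, from 14094338 to 14094994 with 6.23, held an Sp1 peak from 14094745 to 14094844 with 11.04 (percentile 81.4). In the last pair it was Sp1 that ranked higher, since the Dll peak stood at percentile 40.9. Of the 17 Dll peaks, 4 had no Sp1 peak (23.5%, against 56.9% of the list), with values from 5.96 to 7.44. Of the 22 Sp1 peaks, 5 had no Dll peak (22.7%), near the 27.9% of the Sp1 list. The strongest of the 5, from 14144301 to 14144569 with 9.68, ended 96 bp from a Dll peak.

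At *ex*, the gene of the FERM domain protein, 7 of the 14 Dll and 18 of the 23 Sp1 peaks fell into 2 long stretches, of 5045 and 3856 bp. The stretch from 438912 to 442768 held 3 Dll and 10 Sp1 peaks. Its 3 Dll peaks had values of 17.81, 19.88 and 32.51. The last, from 441161 to 442768, was the strongest Dll peak of the 3 loci (percentile 99.2) and overlapped 3 Sp1 peaks, with 15.78, 11.45 and 14.26. The Dll peak from 438913 to 440042 overlapped 4 Sp1 peaks, the most of any at these loci, with values from 4.70 to 7.05. The Dll peak from 440133 to 440969 overlapped 3, with 7.74, 14.18 and 4.33. Each strong Dll peak of this stretch thus spanned several Sp1 peaks.

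The other long stretch at *ex*, from 427105 to 432150, held 4 Dll and 8 Sp1 peaks. It includes the longest Dll peak of the 3 loci, 2609 bp from 429541 to 432150, with a value of 18.62 (percentile 92.4). The Sp1 peak from 429802 to 430643 was the strongest and longest of the *ex* window, with 18.91 (percentile 95.1) over 841 bp, and lay wholly inside it. The Dll peak from 427105 to 428215 had 17.74 and held Sp1 peaks with 7.68 and 12.87. Between these 2 Dll peaks the order turned. A Dll peak from 428716 to 429380 with 5.54 (percentile 32.6) held an Sp1 peak from 429055 to 429283 with 11.83 (percentile 84.1), beside a second one with 4.00. The Dll peak from 428330 to 428599 had 4.93 and overlapped Sp1 peaks with 4.51 and 6.15.

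Of the 14 Dll peaks at *ex*, 5 ranked in the top 10% of the Dll list, and all 5 lay in these stretches. The 9 others had values from 4.93 to 7.84. A single Sp1 peak of the window's 23 had no Dll peak (4.35%, against 27.9% of the Sp1 list). It lay from 421490 to 421587 with 4.43, and a Dll peak from 420752 to 421347 ended 143 bp before it. The 3 Dll peaks without Sp1 (21.4% of the 14, against 56.9% of the Dll list) had 5.31, 6.89 and 7.84. The left part of the window, up to 423888, held 5 Dll and 4 Sp1 peaks, of which the closest match was a Dll peak from 423440 to 423847 (7.34) and an Sp1 peak from 423441 to 423888 (7.03) that shared 406 bp. No peak of either factor lay from 432150 to 438912.

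Across the 3 loci, 31 of the 46 Dll peaks overlapped an Sp1 peak by at least 1 bp (67.4%, 95% Wilson interval 53.0% to 79.1%), beside 43.1% over the Dll list. Of the 60 Sp1 peaks, 51 overlapped a Dll peak (85.0%, 73.9% to 91.9%), beside 72.1% over the Sp1 list. The intervals cover counting error only and treat neighbouring peaks as independent, which they may not be. The shares at *fj* and over the 3 loci include the peaks on *fj_LE1* and *fj_LE2*. The overlap on these fragments follows from how the paper chose them, and shares without them were not computed. An interval above the list value is thus not a test of the loci. The share for Dll was 46.7% at *ds* (7 of 15), 78.6% at *ex* (11 of 14) and 76.5% at *fj* (13 of 17). The share for Sp1 was 80.0% at *ds* (12 of 15), 95.7% at *ex* (22 of 23) and 77.3% at *fj* (17 of 22). The intervals of the 3 loci overlap for both factors, and the difference between loci was not tested.

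**Figure D2:**
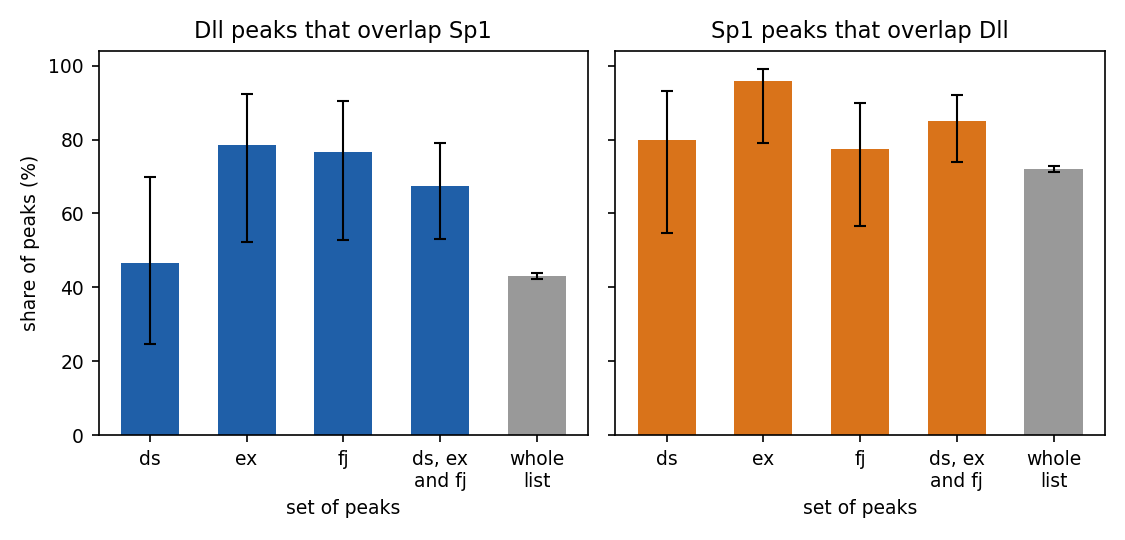
Share of Dll peaks that overlap an Sp1 peak (left) and of Sp1 peaks that overlap a Dll peak (right), in percent, at *ds*, *ex*, *fj*, the 3 loci together and over the whole list (grey). Error bars are 95% Wilson intervals. The bars for *fj* and for the 3 loci include the peaks on *fj_LE1* and *fj_LE2*, where overlap follows from how the paper chose these fragments. The Dll share at *ds*, 46.7%, lies near the 43.1% of the list, while those at *ex* and *fj* are 78.6% and 76.5%.

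Dll peaks with an Sp1 peak were the longer ones. Dll peaks at the 3 loci had a median length of 539.5 bp, against 293 bp over the list, and those with an Sp1 peak had a median of 707 bp against 228 bp for those without (465 and 217 bp over the list). Among Dll peaks of at least 500 bp, 20 of 24 at the loci overlapped Sp1 (83.3%), against 72.3% over the list. Among shorter ones, 11 of 22 did (50.0%), against 31.9%. At *ds*, 7 of 10 long Dll peaks and 0 of 5 short ones overlapped Sp1, whereas at *ex* 5 of 7 and at *fj* 6 of 10 short ones did. The part that length plays in the higher share at the loci was not tested. Sp1 peaks at the loci had a median length of 178.5 bp, against 130 bp over the list.

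The overlaps were mostly of a short Sp1 peak within a longer Dll peak. The loci held 51 overlapping pairs, and in 42 of them (82.4%) the Sp1 peak lay wholly inside the Dll peak, beside 80.1% of the 7195 pairs in all. The median shared length was 179 bp (140 bp in all pairs), which was 28.1% of the Dll peak. If only overlaps over 50% or more of each partner were counted, 19.6% of the Dll and 15.0% of the Sp1 peaks at the loci were shared, against 16.0% and 20.0% over the lists. Under that definition the share for Sp1 thus lay below that of the list instead of above it. Of the 31 Dll peaks with Sp1, 16 overlapped 1 Sp1 peak, 11 overlapped 2, 3 overlapped 3 and 1 overlapped 4. Dll peaks with 3 or more Sp1 peaks made up 8.70% of those at the loci (4 of 46) and 2.95% of the list. Of these 4, 3 lay at *ex* and 1 at *ds*.

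The strength of the peaks was spread over most of the range of each list. The median percentile of the Dll peaks was 52.8 at *ds*, 49.8 at *ex* and 46.8 at *fj*, from 5.50 to 99.2 over the 46 peaks. That of the Sp1 peaks was 77.6 at *ds*, 53.4 at *ex* and 55.0 at *fj*, from 1.44 to 99.98 over the 60. In the top 10% of its list lay 10 of the 46 Dll peaks (21.7%, against 10.1% of the list), with 3 at *ds*, 5 at *ex* and 2 at *fj*. For Sp1 these were 8 of 60 (13.3%, against 9.89%), with 3, 4 and 1. In the weakest 10% lay 2 of the 46 Dll peaks, beside 1432 of 12319 over the list. For Sp1 these were 7 of the 60, beside 987 of 9850, with none among the 15 at *ds*. All 10 Dll peaks in the top 10% overlapped Sp1, and 7 of the 8 Sp1 peaks overlapped Dll, the exception being the isolated peak of the *ds* window. Over the whole lists, 85.0% of the Dll and 85.1% of the Sp1 peaks in the top 10% overlapped the other factor.

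**Figure D3:**
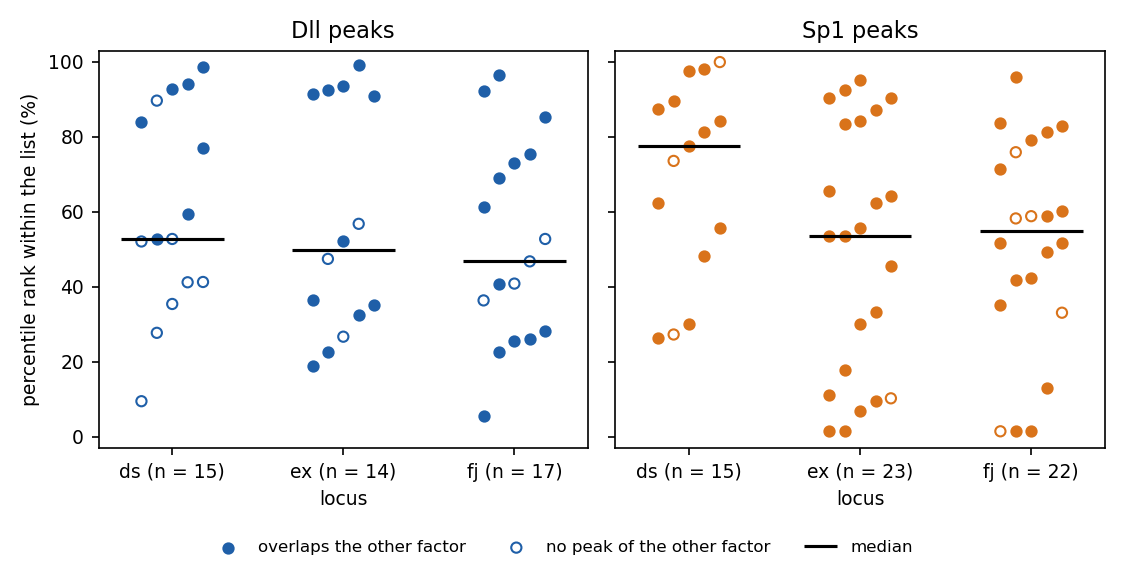
Percentile rank of each Dll peak (left) and Sp1 peak (right) within its own list, by locus. Filled points overlap a peak of the other factor, open points do not, and black lines are medians. The Dll peaks at *ex* fall into 5 at percentile 91.0 or above and 9 at 56.8 or below, and the open point at the top of the Sp1 panel is the isolated peak of the *ds* window.

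Within the 51 pairs, the Dll peak had the higher percentile in 35 and the Sp1 peak in 16. By locus, Dll ranked higher in 10 of 12 pairs at *ds*, in 16 of 22 at *ex* and in 9 of 17 at *fj*. Over all pairs of the lists this held for 66.7%, against 68.6% at the loci. The ranks of the partners had a Spearman coefficient of 0.51 over the 51 pairs, with 0.63 at *ds*, 0.45 at *ex* and 0.51 at *fj*, and 0.22 over all 7195 pairs. These coefficients are a description, since 1 Dll peak enters several pairs.

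**Figure D4:**
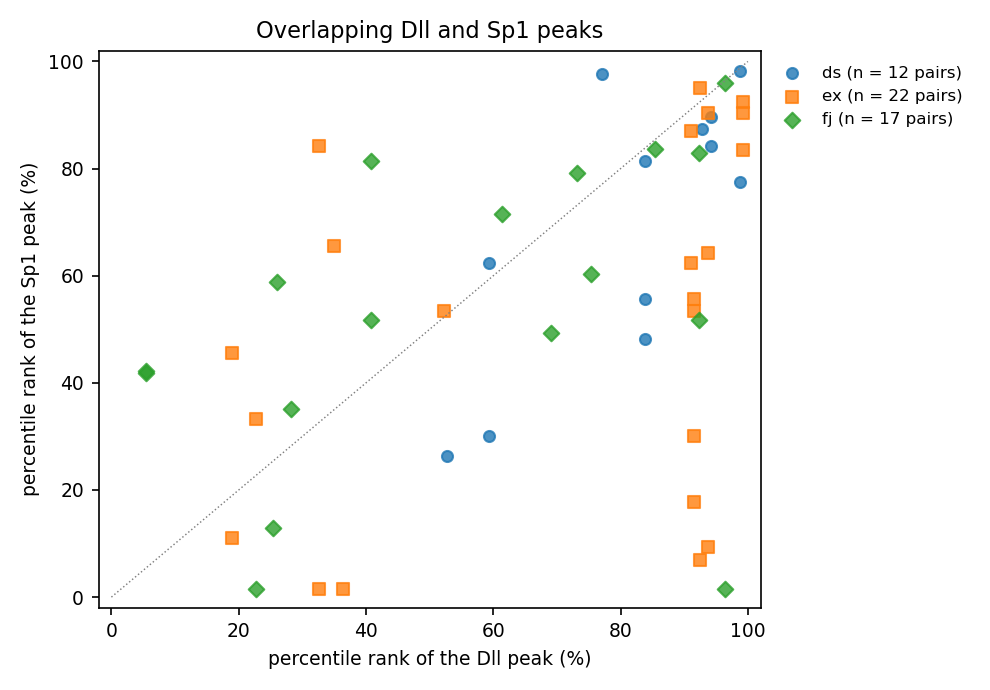
Percentile rank of the Dll peak (x axis) against that of the Sp1 peak (y axis) for the 51 overlapping pairs at *ds* (circles), *ex* (squares) and *fj* (diamonds). The dotted line marks equal ranks, and 35 pairs lie below it, with the vertical columns at *ex* coming from Dll peaks that hold several Sp1 peaks.

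The distance from a window's edge to the nearest peaks varied. Just outside the *ds* window, 331 bp from its left edge, lay a Dll peak from 639377 to 639668 with a value of 10.05 that spans an Sp1 peak from 639547 to 639616 with 6.03, while the first Dll peak inside began 19639 bp from that edge with 6.30. On the right, no further Dll peak followed for 70932 bp past the edge. The first Dll peak inside the *ex* window lay 41 bp from its edge (5.92), and the last one before the window 25921 bp away (6.42). At *fj* the first Dll peak inside lay 204 bp from the edge (5.22) and the last one outside 1448 bp away (6.45). Past the right edge of *ex* the next Dll and Sp1 peaks lay 23804 and 23833 bp away (9.88 and 7.27). The next peaks past the right edge of *fj* were a Dll peak with 4.46, 3383 bp away, and an Sp1 peak with 11.22, 3223 bp away.

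Peaks were placed by position and not by gene. In the RefSeq annotation of a later genome release the protein-coding neighbours of *ds* are *CG2839* and *Hsp60B*, those of *ex* are *BBS8* and *crq*, and those of *fj* are *CG46388* and *Ote*. A gene annotation of dm3 was not used here, so which peaks lie in an exon, an intron or upstream of a start was not analysed, and a peak in a window may belong to a neighbour.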

How the data were processed

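Reads of leg disc ChIP and input libraries were aligned by the authors with the Burrows-Wheeler Aligner to dm3, and peaks were called with MACS2 (version 2.0.9 per the submitters' processing notes) on merged libraries. For each factor the authors deposited 1 peak list, in which every peak has a −log10 q over input. The authors' own cutoffs were a p-value for the extent and a q-value for keeping a peak, and the lowest −log10 q is 4 in both lists. The study describes both triplicate pools and merged duplicates, so which ChIP libraries entered a list is not settled by the sources used here. The choice of cutoff decides which peaks exist, and an absent peak means only that no call passed it.

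No reads were processed again. The comparison was run in Python 3.11.15 (pandas 2.3.3, numpy 2.4.6, scipy 1.17.1). Positions are printed as deposited. Starts were read as counted from 0, and fragment positions as counted from 1. An overlap was any shared stretch of 1 bp or more, tied values shared their average rank, and densities refer to the span from the first to the last peak of an arm. The overlap routine was tested on simulated data. The members, the windows and the rule for named peaks were chosen with earlier results of these data known. The rule names, at each locus, the 3 strongest peaks and the longest peak of each list, those on the reporter fragments, those nearest to the window edges and the strongest without the other factor. Further peaks were named after their values were seen. Other Fat and Hippo pathway genes and promoter sequences were not analysed here, since no dm3 annotation or genome was used.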

Additional observations from a re-analysis of the deposited data

How the results depend on the processing

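No paired analysis was possible because peaks were called on merged libraries, and for the same reason no library could be left out. There were 10 planned settings, and 1 on the length of Dll peaks that was chosen after seeing the data. Of the 38 values for the 3 loci together, 26 stayed within a set margin of the reported ones, and 12 moved. At single loci, 29 values moved and 85 did not. A count stayed if it changed by a factor of at most 1.5. A share or median stayed if it lay within the 95% interval of the reported value. These margins are wide. At *ex*, the median Dll percentile was 91.3 in windows narrowed by 5 kb, against 49.8, and counted as not moved. With a −log10 q of at least 10 there were 16 Dll and 19 Sp1 peaks in place of 46 and 60, and the Dll share was 81.2% (31.0% over the list). Peaks joined within 500 bp numbered 28 and 27. If 50% or more of each partner had to be covered, the shares were 19.6% for Dll and 15.0% for Sp1. Counting only Sp1 peaks that lay entirely inside a Dll peak, the Sp1 share was 70.0% (58.5% over the list). With only Dll peaks of at least 500 bp, the Dll share was 83.3% (72.3% over the list). The Sp1 share was then 63.3%, and its value over the list was not computed. Weighting peaks by length raised the median percentile to 89.7 for Dll and 83.7 for Sp1. The same weighting was not applied to the whole lists, so these medians have no list value to stand beside. Windows widened by 10 kb or narrowed by 5 kb, ranks within the arm and starts counted from 1 moved none of the values for the 3 loci together. Depth is unknown, which limits what an absent peak shows. The planned motif search in promoters and the count over other pathway genes were not run.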

Other observations

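Another reporter fragment of this neighbourhood, *Ote/fj_LE*, lies at 14156155 to 14157927 on 2R, 6151 bp past the right edge of the *fj* window, and its peaks are not among the members. The paper chose this fragment in the same way as *fj_LE1* and *fj_LE2*, so peaks of both factors on it follow from that choice. Its strongest Dll peak, from 14155962 to 14157298, had a −log10 q value of 28.66 (percentile 98.6), above the 23.15 on *fj_LE2*, and covered 64.5% of the fragment. A second Dll peak from 14157438 to 14157738 had 8.21. An Sp1 peak from 14156966 to 14157733 had 18.47 (percentile 94.8) and covered 43.3%, and another from 14156319 to 14156912 had 13.20 and covered 33.4%.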
